A study of Mus musculus with 9 samples.

Results

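Cadherins and non-clustered protocadherins were examined in the cortex of mouse fetuses whose dams had received alcohol. Members were taken by symbol: genes named Cdh or Pcdh followed by a number, Fat1 to Fat4, Dchs1 and Dchs2, and Celsr1 to Celsr3. This took in 43 of the 27095 loci of the deposited expression table, each carrying a single gene name, and left out the clustered Pcdha, Pcdhb and Pcdhg genes. Dchs2 was not analysed here.

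RNA-seq was carried out on 9 wild-type C57BL/6 fetuses (C57BL/6J in the study's methods) collected on gestational day 17, with 3 animals in each of 3 groups. Control dams received lactated Ringer's solution on gestational day 7. Dams of both alcohol-exposed groups received 2.9 g/kg ethanol (EtOH) by intraperitoneal injection on the same day. The exposed fetuses were separated by whether ocular and cortical patterning defects could be seen, which gave the EtOH-exposed unaffected and the EtOH-exposed affected offspring. Since affected fetuses were defined by a visible defect, exposure and outcome are both in the affected-against-control comparison, whereas both groups of the affected-against-unaffected comparison were exposed. The labels name the tissue as fetal brain and the study's methods as cortex, and the sex and litter of the sequenced fetuses are not given in the sources used here.

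The deposited values are FPKM, a count of fragments divided by transcript length and by sequencing depth. For every locus there is a single number per group, which the authors' software derived from the 3 animals. No value of a single animal, and no library total, could therefore be used, so the spread between animals and the depth behind each value are unknown. No test was run, and each difference below is a description of group values with no replicate error. A log2 ratio of at least 0.32 in either direction (a ratio of 0.8 or less, or of its inverse or more), among loci with a mean of at least 1 FPKM over the 3 groups and a value above 0 in each, is called past the fold, and this size is a convention rather than a measure of certainty. Since the tissue was sequenced in bulk, fewer cells of a type and less RNA per cell cannot be told apart.

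Cadherins are cell surface proteins whose extracellular repeats bind calcium and hold neighbouring cells together. Type I and type II classical cadherins bind like molecules on the next cell and are tied to actin inside the cell through catenins. In the developing cortex, N-cadherin (Cdh2) keeps radial glia joined at the ventricular surface, and combinations of type II cadherins and delta protocadherins mark areas, layers and circuits. The giant Fat and Dachsous cadherins bind each other across cell contacts, and the Celsr proteins, which are the mammalian Flamingo cadherins, act in planar cell polarity, in neuronal migration and in the laying of axon tracts.

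The tissue label was checked against marker genes. All 8 cortical markers were above 1 FPKM in each group, with summed levels between 832 FPKM in the unaffected and 1078 FPKM in the affected group, whereas all 5 hindbrain and cerebellar markers were below 1 FPKM, with sums from 0.0304 to 0.0506 FPKM. In the affected group, 5 of the 8 cortical markers were past the fold above control. Markers of neighbouring regions were also present. The 6 ventral telencephalic markers summed to 134, 160 and 149 FPKM in control, unaffected and affected tissue, and Nkx2-1 among them was at 3.51, 5.67 and 3.69 FPKM. The 4 thalamic markers summed to 11.4, 9.39 and 10.2 FPKM in the same order, and of the 3 that passed the filter Tcf7l2 was lower past the fold in affected than control tissue, at 4.18, 2.29 and 2.39 FPKM, Lef1 was higher, at 2.47, 2.57 and 3.42 FPKM, and Lhx9 was within it. Blood cell markers differed between the exposed groups. The erythroid markers summed to 256.2, 331.3 and 208.0 FPKM, with 3 of 3 higher past the fold in unaffected than control and 3 of 3 lower in affected than unaffected tissue. The 5 microglial markers summed to 46.5, 47.9 and 38.9 FPKM, with 3 lower and 1 higher past the fold in affected than unaffected tissue. The part of blood, microglia or dissection in the members' values was not tested.

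Of the 43 members, 35 passed the filter, and each of the 35 was above 1 FPKM in every group. Their mean levels ran from 1.22 FPKM for Cdh3 to 128.9 FPKM for Cdh2, with a median of 5.85 FPKM beside 8.35 FPKM for all 15455 loci that passed. Levels are per transcript length and can be set side by side between genes on this scale. The remaining 8 members had means of 0.0303 to 0.625 FPKM and were below 1 FPKM in every group. These were Cdh15, Cdh16, Cdh17, Cdh19, Cdh23, Cdh26, Fat2 and Pcdh15, and the highest of them was Cdh15, a muscle cadherin.

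Across the 35 members, affected levels were mostly above those of the other groups. In affected against control, 11 members were higher past the fold and 1 was lower, beside 12.6% of all loci higher and 11.5% lower. In affected against unaffected, 20 members were higher and 0 were lower, where 20.7% of all loci were higher and 18.5% lower. In unaffected against control, 0 members were higher and 4 were lower, with 5.53% of all loci higher and 6.99% lower. The median log2 ratio of the members was 0.21, 0.37 and -0.16 in the 3 comparisons in that order, whereas the medians of all loci were 0.02, 0.01 and 0.01. These comparisons share group values in pairs, and the affected-against-unaffected log2 ratio is the difference between the other two, so a low unaffected value raises it without any change in the affected group. Trends over transcript length, described further on, were then subtracted. By the longest transcript, 4 of the 11 higher, 8 of the 20 higher and 0 of the 4 lower members stayed past the fold. Shares of all loci past it were 4.24%, 9.66% and 1.49%. By the median transcript, 7, 13 and 3 members stayed so, beside 7.45%, 15.2% and 2.05% of all loci. The first 2 medians became 0.06 and 0.14 by the longest transcript and 0.08 and 0.24 by the median transcript.

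**Figure D1:**
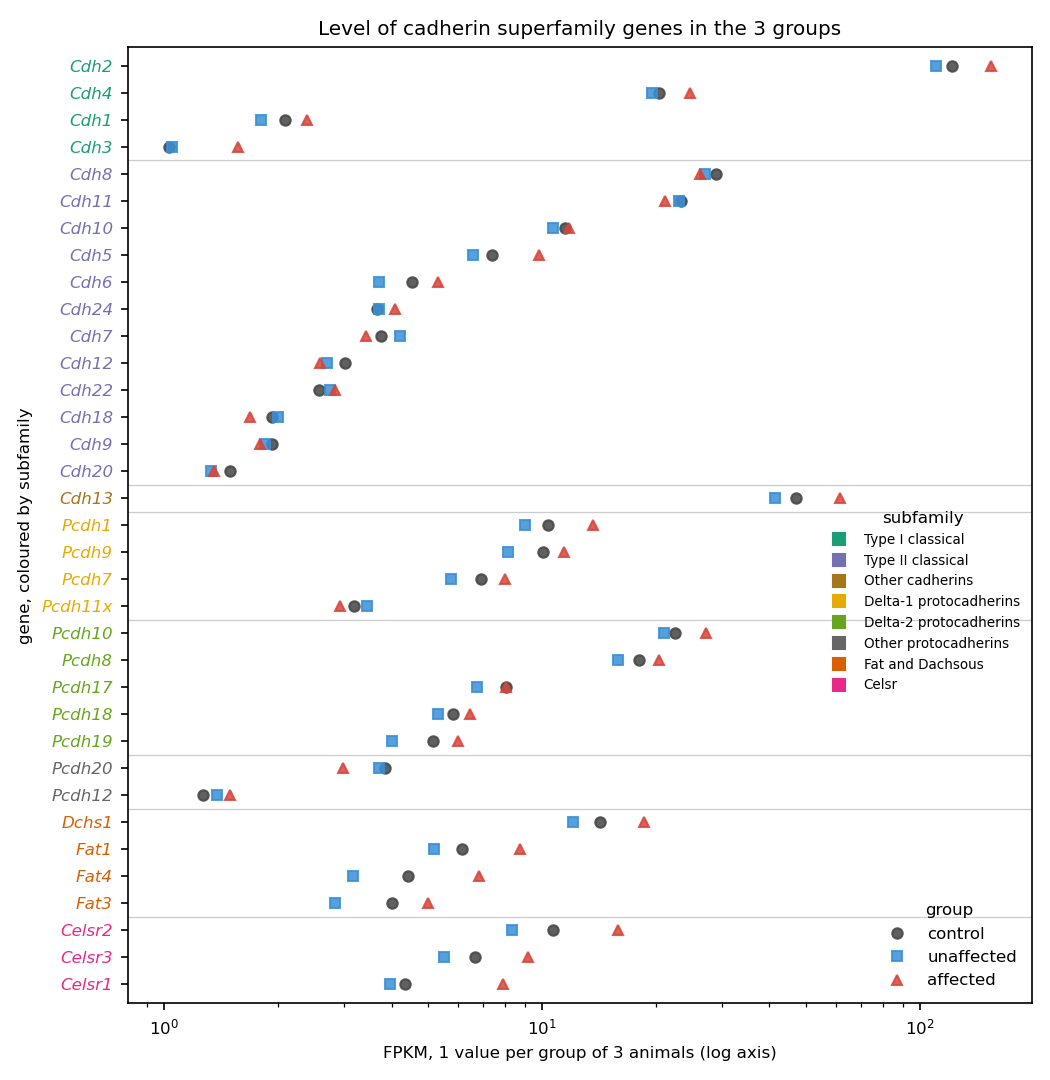
FPKM of the 35 members that passed the filter, on a log axis, with 1 point per group of 3 animals and genes grouped by subfamily. Affected values (triangles) lie to the right for most type I cadherins, protocadherins, Fat, Dachsous and Celsr genes, and to the left of control for 7 of the 12 type II cadherins. There are no error bars because values of single animals were not used.

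The affected group had the highest value for 26 of the 35 members (74.3%), and this was so for 45.0% of all loci. The unaffected group had the lowest value for 23 members (65.7%), beside 38.5% of all loci. The order unaffected below control below affected held for 22 members (62.9%) and for 32.3% of all loci, whereas the opposite order, which 31.1% of all loci had, was seen in 3 members, Cdh7, Cdh18 and Pcdh11x. Summed over all 43 members, the level was 433.9 FPKM in control, 391.4 FPKM in unaffected and 519.0 FPKM in affected tissue. Cdh2 and the other type I cadherins took 33.6%, 34.2% and 35.3% of that sum in the same order of groups. The type II share was 21.7%, 22.9% and 17.8%, and the Celsr share was 5.0%, 4.54% and 6.36%.

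**Figure D2:**
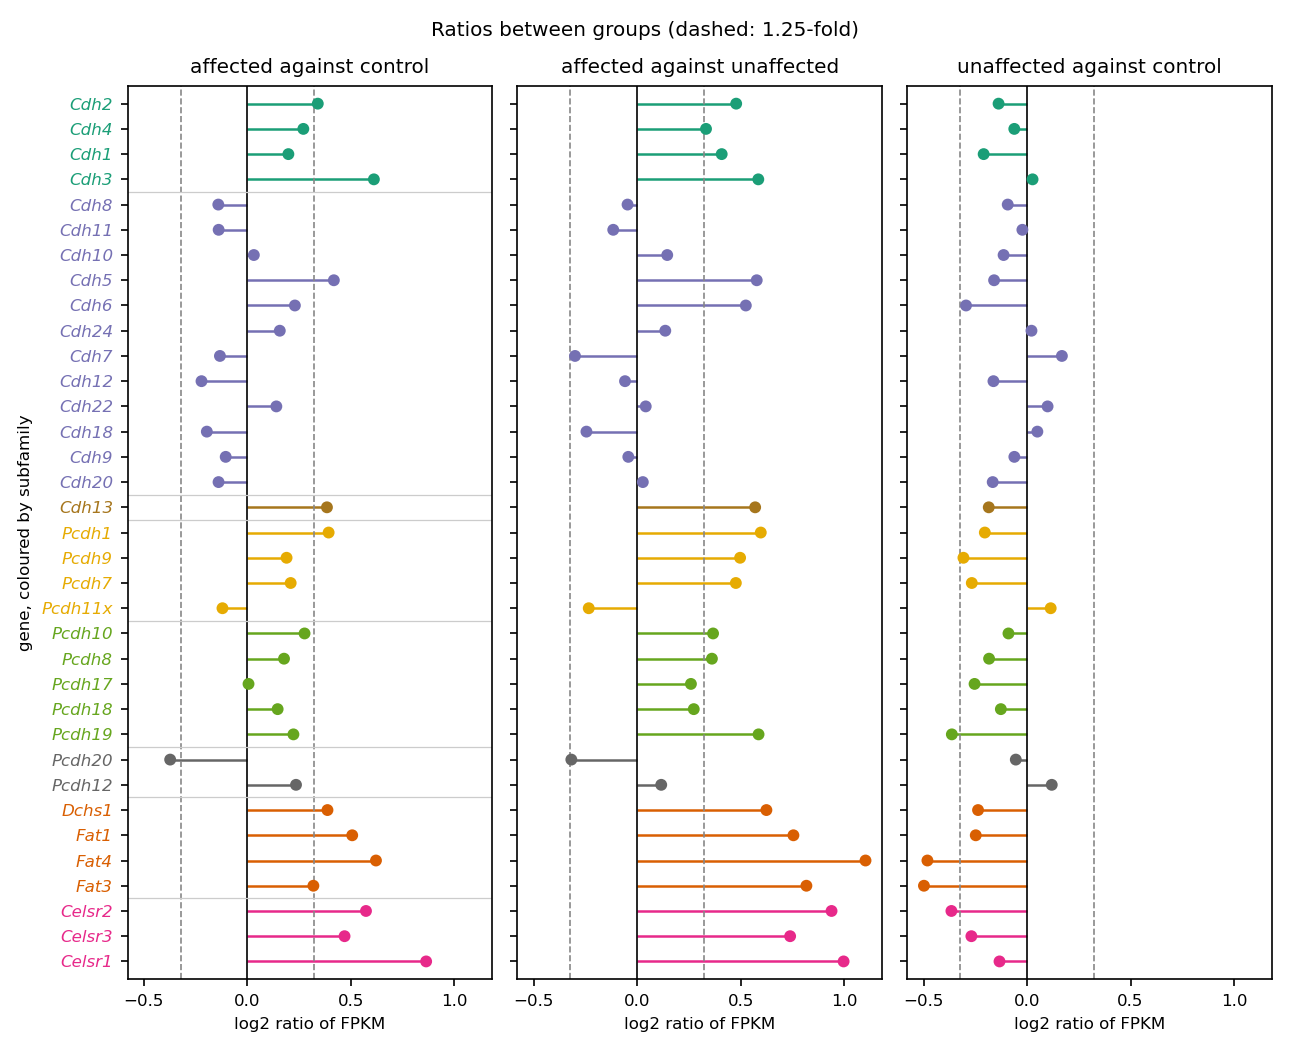
Log2 ratio of FPKM for each of the 35 members in the 3 comparisons, coloured by subfamily, with dashed lines at the limit of the fold. The 7 Fat, Dachsous and Celsr genes are all to the right of 0 in the affected comparisons and all to the left of it in unaffected against control, while the type II genes lie on both sides.

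To show what lies just upstream of an annotated start in genes at either end of the range, the 250 bases before the RefSeq start site are printed for 4 members. Chosen by rule, these were the pair with the highest and the pair with the lowest affected-against-control ratio among members that passed the filter and have a single RefSeq promoter entry (build GRCm38.p6) that could be printed. Each is written 5′ to 3′ on the strand of the gene, and capitals mark every CG dinucleotide. The windows are chr3:38886690-38886939 on the plus strand for Fat4, chr3:108415580-108415829 on the minus strand for Celsr2, chr14:88471397-88471646 on the minus strand for Pcdh20 and chr15:21111202-21111451 on the plus strand for Cdh12.
Fat4: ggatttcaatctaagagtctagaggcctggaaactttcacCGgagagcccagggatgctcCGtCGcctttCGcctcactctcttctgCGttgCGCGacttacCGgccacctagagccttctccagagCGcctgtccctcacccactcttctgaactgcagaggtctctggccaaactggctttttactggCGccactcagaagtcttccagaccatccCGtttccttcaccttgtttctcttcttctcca
Celsr2: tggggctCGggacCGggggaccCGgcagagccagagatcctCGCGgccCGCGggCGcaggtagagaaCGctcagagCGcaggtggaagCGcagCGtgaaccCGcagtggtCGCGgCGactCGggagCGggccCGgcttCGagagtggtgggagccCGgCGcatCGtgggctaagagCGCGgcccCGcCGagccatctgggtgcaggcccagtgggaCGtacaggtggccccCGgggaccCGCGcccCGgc
Pcdh20: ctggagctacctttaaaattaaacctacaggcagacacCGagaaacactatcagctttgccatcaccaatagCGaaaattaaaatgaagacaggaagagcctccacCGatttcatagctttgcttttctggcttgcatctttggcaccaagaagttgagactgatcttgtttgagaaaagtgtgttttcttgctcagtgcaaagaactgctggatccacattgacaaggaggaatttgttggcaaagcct
Cdh12: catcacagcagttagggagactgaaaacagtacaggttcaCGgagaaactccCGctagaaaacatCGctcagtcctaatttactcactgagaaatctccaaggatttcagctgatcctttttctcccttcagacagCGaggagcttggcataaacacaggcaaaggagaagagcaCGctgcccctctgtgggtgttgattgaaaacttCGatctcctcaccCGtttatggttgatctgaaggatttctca

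The Fat4 window held 11 CG dinucleotides at a G+C content of 54.8%, and the Celsr2 window held 32 at 75.2%. The Pcdh20 and Cdh12 windows held 3 and 7, at 42.4% and 46.8%. The Cdh12 window lies inside the annotated span of its gene, which has a start further upstream, and so do windows of Cdh7, Cdh10, Cdh18 and Fat1. The Fat4, Celsr2 and Cdh12 windows also lie inside the loci of the deposited expression table, which begin further upstream. Over the 26 windows of 23 members that passed the filter, the count ran from 2 to 32 with a median of 14.5. Among 32851 RefSeq windows of this length, 92.1% held at least 1 CG and the median was 6. The 17 windows of members above control in affected tissue had a median of 18 CG, from 2 to 32, and the 9 windows of members below control had a median of 8, from 3 to 20, so the ranges overlapped. Nothing was measured at these promoters in the data used here.

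The giant cadherins and the Celsr genes had the widest median differences of the subfamilies, though Cdh3 exceeded most of them in affected against control. Of the 7 that passed the filter, 6 were higher past the fold in affected than control tissue, and 7 of 7 were higher in affected than unaffected tissue. In unaffected against control, 3 were lower, namely Fat3, Fat4 and Celsr2. Over all loci the shares were 12.6%, 20.7% and 6.99%. These genes are among the longest, and 64.7% of other loci of at least 10000 nucleotides were also higher in affected than unaffected tissue. Of the 6 that were above control past the fold, Celsr1 and Fat4 stayed so once the trend over longest transcript length, described further on, was subtracted, and Celsr1, Celsr2, Celsr3 and Fat4 stayed so with the trend over median transcript length. Against unaffected, Celsr1, Celsr2, Fat3 and Fat4 stayed past the fold by the longest transcript and all 7 by the median transcript. In unaffected against control, Fat3, Fat4 and Celsr2 were within it by the longest transcript, at -0.31, -0.29 and -0.19. By the median transcript all 3 stayed past it. Without subtraction, the median log2 ratios of the 7 genes were 0.51, 0.82 and -0.27. The other 28 members had medians of 0.17, 0.27 and -0.12, with 5 higher and 1 lower in affected against control and 13 higher against unaffected.

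Celsr1, a core planar cell polarity cadherin of ventricular zone progenitors, lies at chr15:85898699-86034209 (mm10). Its level was 4.33 FPKM in control, 3.95 FPKM in unaffected and 7.89 FPKM in affected tissue, so that control and unaffected values were close and the affected value stood apart. The affected group was 1.82-fold above control, the largest affected-against-control ratio of the 35 members, and 2.00-fold above unaffected. Celsr2, which acts with Celsr3 in ciliary and axon development, had 10.7, 8.31 and 15.9 FPKM in control, unaffected and affected tissue. This was 1.49-fold above control and 1.92-fold above unaffected, and the unaffected value was 0.776-fold of control. Celsr3, needed for the major forebrain axon tracts, had 6.65, 5.52 and 9.21 FPKM in the same order. Its affected level was 1.39-fold that of control and 1.67-fold that of unaffected tissue.

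Fat4, the receptor of Dachsous1 in the control of neural progenitors and neuronal positioning, lies at chr3:38885947-39011983. It was at 4.43 FPKM in control, 3.17 FPKM in unaffected and 6.81 FPKM in affected tissue. The 2.15-fold difference between affected and unaffected was the largest of any of the 35 members in that comparison, and it was made up of a value 1.54-fold above control on one side and a value 0.716-fold of control on the other. Dchs1, its ligand, was the most abundant gene of this group, with 14.2, 12.1 and 18.6 FPKM. The affected level was 1.31-fold above control and 1.54-fold above unaffected. Antisense transcripts overlap 7.04% and 1.64% of the exon bases of Fat4. A transcribed pseudogene on the opposite strand overlaps 5.86% of those of Dchs1. As the libraries did not mark strand, reads of these overlaps cannot be told apart.

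Fat1, an atypical cadherin that acts on actin at cell contacts of radial glia, had 6.14, 5.17 and 8.73 FPKM in control, unaffected and affected tissue, a ratio of 1.42-fold over control. Fat3, which acts in the shaping of neuronal processes, had 4.0, 2.83 and 4.99 FPKM. Its affected-against-control ratio of 1.248 was just under the limit, while its unaffected value was 0.708-fold of control, the lowest unaffected-against-control ratio among the members that passed. Fat2, known from cerebellar granule cells, was at or below 0.0370 FPKM in every group.

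Of the 43 members, the 4 type I classical cadherins that passed the filter were all higher in affected than in unaffected tissue past the fold, and 2 of them were also higher than control, beside 20.7% and 12.6% of all loci. With the trend over longest transcript length subtracted, as described further on, Cdh3 alone of the 4 stayed past the fold in either comparison. With the trend over median transcript length, Cdh3 and Cdh4 were past the fold in both comparisons and Cdh2 and Cdh1 in neither. Cdh4 was then at log2 ratios of 0.37 against control and 0.52 against unaffected. Cdh2, or N-cadherin, was the most abundant member, at 121.7 FPKM in control, 110.7 FPKM in unaffected and 154.2 FPKM in affected tissue. This gave ratios of 1.27 over control and 1.39 over unaffected. Cdh4, or R-cadherin, a close relative of Cdh2 found in subsets of neurons and progenitors, had 20.4, 19.6 and 24.6 FPKM. At 1.21-fold over control it stayed within the fold, and at 1.26-fold over unaffected it was barely past it.

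The epithelial type I cadherins were scarce. Cdh1, or E-cadherin, had 2.09, 1.80 and 2.39 FPKM in control, unaffected and affected tissue, and was past the fold only against unaffected, at 1.33-fold. Cdh3, or P-cadherin, had 1.03, 1.05 and 1.57 FPKM, so that control and unaffected were alike in value and affected was 1.53-fold above control. Markers of the choroid plexus, an epithelium of the brain, were read beside these genes. Of the 5 listed markers, 4 passed the filter and 2 were past the fold in affected against control, namely the keratins Krt8 and Krt18, with Krt8 at 1.23, 1.44 and 2.67 FPKM and Krt18 at 2.41, 2.98 and 5.23 FPKM. The summed level of the list, most of it Ttr, was 984, 1307 and 1096 FPKM, highest in unaffected tissue. The part of epithelial cells in the Cdh1 and Cdh3 values was not tested.

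The type II cadherins showed no common direction. Of 12 that passed, 5 were above and 7 below control in affected tissue, and the median log2 ratio was -0.12 against control and -0.01 against unaffected. Only Cdh5 was past the fold against control, while Cdh5 and Cdh6 were past it against unaffected. These are 8.33% and 16.7% of the 12 genes, near the 12.6% and 20.7% of all loci. The abundant neuronal members were close to control. Cdh8, which marks frontal and other cortical areas, had 28.8, 27.0 and 26.2 FPKM in control, unaffected and affected tissue, with an affected-against-control ratio of 0.908. Cdh11 had 23.4, 23.0 and 21.2 FPKM, and Cdh10 had 11.5, 10.7 and 11.8 FPKM, both within the fold. With the trend over median transcript length subtracted, Cdh11 was lower past the fold, at -0.33 against control and -0.40 against unaffected. By the longest transcript it stayed within it.

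Cdh11 is also made by mesenchyme, including the meninges. The 5 meningeal markers summed to 70.8, 65.3 and 62.6 FPKM in control, unaffected and affected tissue, and the median log2 ratio of the list in affected against control was 0.06. Of the 5, Col1a1, Col1a2 and Foxc1 were above control and Lum and Dcn below it, and Dcn alone was past the fold. Their part in the Cdh11 values was not tested.

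Cdh6, a cadherin of cortical area and layer boundaries, was at 4.54, 3.70 and 5.32 FPKM, 1.44-fold higher in affected than unaffected tissue. Cdh7 had 3.74 FPKM in control, 4.20 FPKM in unaffected and 3.41 FPKM in affected tissue, the reverse order, at 0.812-fold in affected against unaffected. The scarcer type II genes stayed within the fold in all 3 comparisons. These were Cdh24 at 3.66, 3.72 and 4.08 FPKM, Cdh12 at 3.02, 2.70 and 2.59 FPKM, Cdh22 at 2.57, 2.75 and 2.84 FPKM, Cdh18 at 1.93, 2.00 and 1.69 FPKM, Cdh9 at 1.93, 1.85 and 1.80 FPKM and Cdh20 at 1.49, 1.33 and 1.36 FPKM. Among them Cdh12 had the lowest affected-against-control ratio, 0.858.

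Cdh5, or VE-cadherin, is a type II cadherin by sequence and the junctional cadherin of blood vessels. It lies at chr8:104101625-104144502. Its level was 7.36 FPKM in control, 6.59 FPKM in unaffected and 9.83 FPKM in affected tissue, a ratio of 1.34 over control and 1.49 over unaffected. Of the 5 other endothelial markers, 4 were above control and above unaffected in affected tissue, as Cdh5 was, and the list had median log2 ratios of 0.28 and 0.39. The exception was Cldn5, at 36.9, 38.4 and 33.9 FPKM. It was the most abundant of them and held most of the summed level, which was 54.8, 55.5 and 56.5 FPKM. Kdr, the vascular endothelial growth factor receptor, was at 5.02, 4.76 and 7.09 FPKM, and was the 1 marker of 5 past the fold in affected against control. Against unaffected, Kdr, Flt1 and Tek were past it. These are 20% and 60% of the 5 markers, beside 12.6% and 20.7% of all loci. The longest transcript of Cldn5 is 1416 nucleotides, whereas those of the other 4 are 3441 to 6895. Whether the amount of vessel differed between the groups was not tested.

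Cdh13, or T-cadherin, has no cytoplasmic tail and is held in the membrane by a lipid anchor. It was the second most abundant member, with 47.1 FPKM in control, 41.4 FPKM in unaffected and 61.5 FPKM in affected tissue. The affected value was 1.31-fold above control and 1.48-fold above unaffected.

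Delta protocadherins are non-clustered protocadherins with conserved motifs in their tails, and are divided into delta-1 and delta-2 genes. All 9 passed the filter. Against control, 1 of them, Pcdh1, was higher past the fold, and against unaffected 6 were, where 12.6% and 20.7% of all loci were. The share against control is thus close to that of all loci. With the trend over longest transcript length subtracted, Pcdh1 alone of the 6 stayed past the fold against unaffected. With the trend over median transcript length, Pcdh1 and Pcdh7 did. Against control, Pcdh1 was then within the fold, at log2 ratios of 0.26 by the longest and 0.23 by the median transcript. With trends over length and G+C both subtracted, Pcdh1 was within it in both comparisons, at 0.11 and 0.24. Pcdh9 alone of the 6 was then past it against unaffected, at 0.34. Pcdh1 had 10.4, 9.03 and 13.7 FPKM in control, unaffected and affected tissue. Pcdh9 had 10.0, 8.12 and 11.5 FPKM and Pcdh7 had 6.89, 5.73 and 7.97 FPKM, with affected-against-unaffected ratios of 1.41 and 1.39 and affected-against-control ratios of 1.14 and 1.16. The libraries did not mark strand, and 21.1% of the exon bases of Pcdh7 overlap a transcript of the opposite strand, 4932441J04Rik, so reads of the pair cannot be told apart. Pcdh11x was the exception among delta-1 genes, at 3.18, 3.44 and 2.93 FPKM, lowest in affected tissue and within the fold.

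Of the delta-2 genes, Pcdh10 was the most abundant, with 22.4 FPKM in control, 21.1 FPKM in unaffected and 27.2 FPKM in affected tissue. It was 1.21-fold above control and 1.29-fold above unaffected. Pcdh8, also known as arcadlin, which regulates N-cadherin at synapses, had 18.01, 15.86 and 20.37 FPKM, and an antisense transcript covers 9.61% of its exon bases. Pcdh19, the gene of an X-linked epilepsy, had 5.14, 4.0 and 6.01 FPKM. Its value was 0.777-fold of control in unaffected tissue and 1.501-fold of unaffected in affected tissue. In unaffected against control it was within the fold with a pseudocount of 1 FPKM, at a log2 ratio of -0.30. With the length trend subtracted it was at -0.23 by the median and -0.19 by the longest transcript, also within it. Pcdh17 was level between control and affected, at 8.02 and 8.05 FPKM, with 6.72 FPKM in unaffected tissue, and Pcdh18 had 5.81, 5.32 and 6.43 FPKM. Neither of these was past the fold in any comparison.

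Pcdh20 was the only member lower past the fold in affected than control tissue. It lies at chr14:88464747-88471396, and had 3.85 FPKM in control, 3.71 FPKM in unaffected and 2.98 FPKM in affected tissue, a ratio of 0.773 over control. Its ratio of 0.802 over unaffected was just inside the limit of 0.8. Against control, Pcdh20 was within the fold with a pseudocount of 1 FPKM, at a log2 ratio of -0.29. It was also within it with the trend over G+C subtracted, at -0.315. With either length trend subtracted it stayed lower past the fold, as 1 of 3 members. The shares of all loci were 6.77% by the longest and 8.47% by the median transcript. Pcdh12, an endothelial protocadherin, had 1.27, 1.38 and 1.49 FPKM and was within the fold in all 3 comparisons.

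The ratios were related to transcript length across the whole table. The trend was widest at the lengths of the giant cadherins, and calls of shorter members also changed when it was subtracted. Over the 12470 loci that passed the filter and could be matched to a GENCODE M21 gene with a length, Spearman's rho between the length of the longest annotated transcript and the log2 ratio was 0.52 in affected against control, 0.60 in affected against unaffected and -0.50 in unaffected against control. Genes are not independent replicates, the ratios share the same libraries, and these values are descriptions. Among the 35 members rho was 0.44, 0.56 and -0.60, and without the Fat, Dachsous and Celsr genes, over 28 members, it was 0.11, 0.17 and -0.37. With the median annotated transcript of each gene in place of the longest, rho was 0.30, 0.36 and -0.31 over all loci and -0.02, 0.11 and -0.26 over the 35 members. The longest transcripts of the 7 Fat, Dachsous and Celsr genes that passed were 10598 to 18760 nucleotides, beside a median of 4004 for the type II genes and 3443 for all loci.

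Loci outside the family were therefore compared at like length. Of 303 other loci with a longest transcript of at least 10000 nucleotides, 33.0% were higher past the fold in affected than control tissue, 64.7% were higher in affected than unaffected tissue and 15.2% were lower in unaffected than control tissue. Their median log2 ratios were 0.26, 0.43 and -0.18. The 9 members of that length had medians of 0.47, 0.75 and -0.27, with 6 and 8 members higher and 4 lower in the same comparisons. At the other end, loci below 2000 nucleotides had medians of -0.19, -0.31 and 0.11, and no member that passed was that short.

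**Figure D3:**
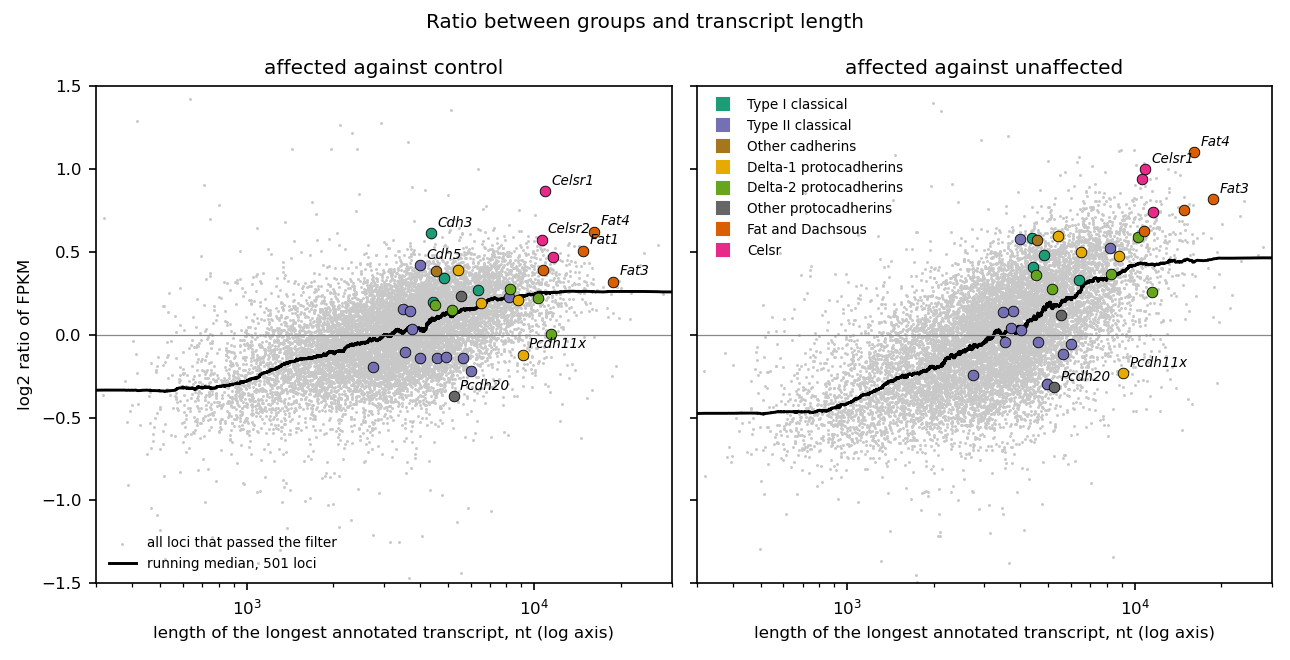
Log2 ratio of FPKM against the length of the longest annotated transcript (log axis) for all loci that passed the filter (grey), with their running median (black) and the members coloured by subfamily. A few loci beyond 1.5 on the log2 scale are not shown. The running median climbs with length in both panels, and Celsr1 and Fat4 lie above it while Pcdh20 and Pcdh11x lie below it.

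When the running median at each member's longest transcript length was subtracted, the affected-against-control ratios of the 7 Fat, Dachsous and Celsr genes became smaller. In that comparison, 4 of the 11 higher members were still past the fold, namely Celsr1 at a log2 ratio of 0.61, Cdh3 at 0.53, Cdh5 at 0.38 and Fat4 at 0.36. Under the same subtraction 4.24% of all loci were higher and 6.77% lower in this comparison. Celsr2 was at 0.318, just under the limit of 0.32, while Fat1 was at 0.25, Celsr3 at 0.22, Dchs1 at 0.13 and Fat3 at 0.06. Pcdh20 was still lower, at -0.49, and Cdh12 and Pcdh11x were now lower past the fold, at -0.37 and -0.36. In affected against unaffected, 8 of the 20 were still higher, with Fat4 at 0.66, Celsr1 at 0.57, Cdh5 at 0.53 and Celsr2 at 0.51, together with Cdh3, Cdh13, Pcdh1 and Fat3, beside 9.66% of all loci. In unaffected against control, 0 of the 4 lower members were still past the fold, where 1.49% of all loci were. With the median annotated transcript of each gene in place of the longest, 7 of the 11, 13 of the 20 and 3 of the 4 were still past it, and the shares of all loci past it were 7.45%, 15.2% and 2.05%. On that measure Celsr2 and Celsr3, whose median transcripts are 664 and 767 nucleotides, had larger ratios than before, at 0.62 and 0.54 in affected against control and 1.06 and 0.85 in affected against unaffected. Which transcript length best describes these libraries was not tested.

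**Figure D4:**
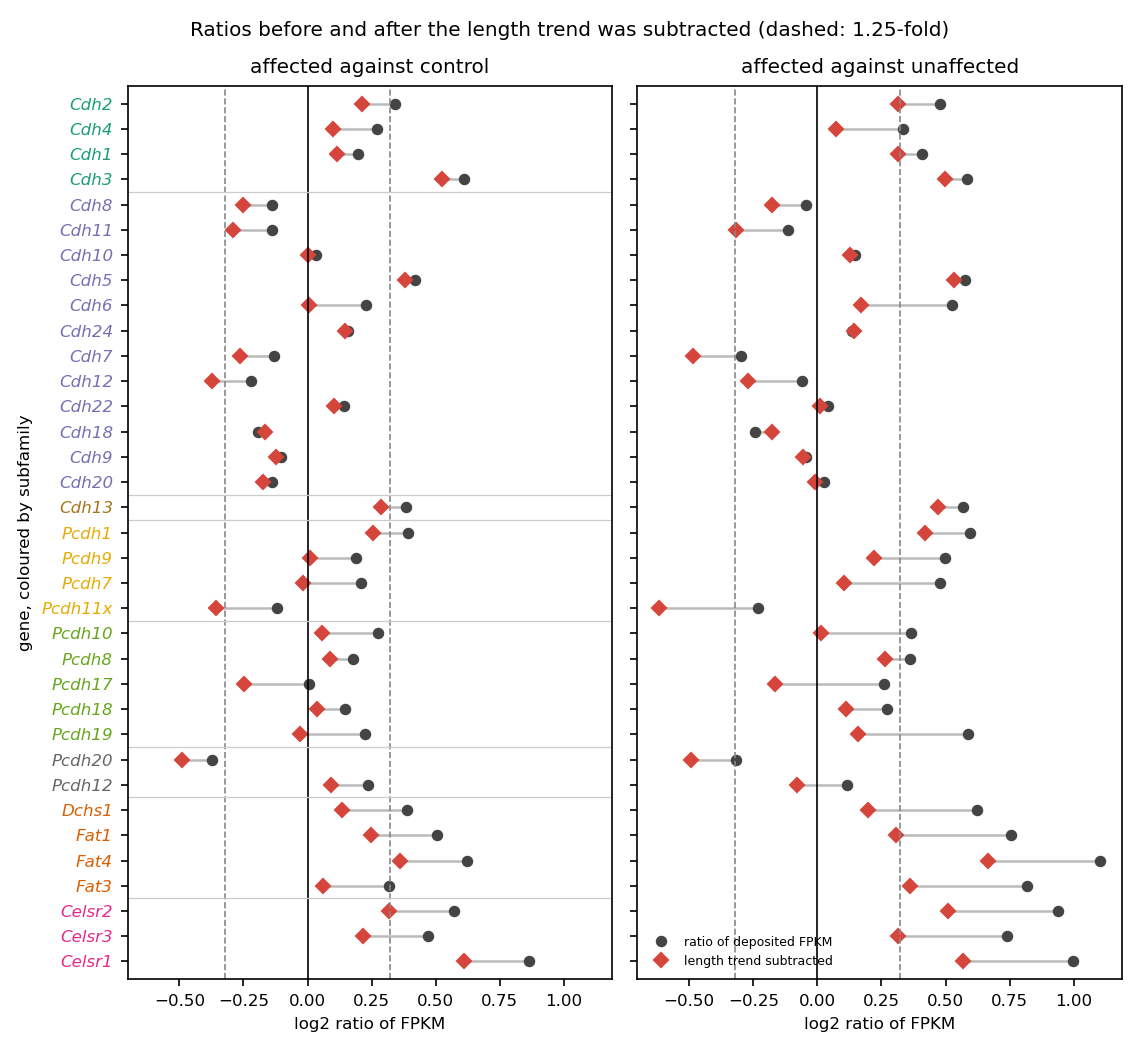
Log2 ratio of FPKM for each member as computed from the deposited values (circles) and after the running median at its longest transcript length was subtracted (diamonds), with dashed lines at the limit of the fold. Diamonds of Celsr1, Fat4, Cdh3 and Cdh5 remain to the right of the dashed line in both panels, while those of Dchs1 and of most protocadherins lie between the dashed lines.

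Base composition also moved with the ratio. Across the 35 members, rho between the G+C content of the longest transcript and the log2 ratio was 0.57 in affected against control, 0.50 in affected against unaffected and -0.12 in unaffected against control, whereas across all loci it was 0.21, 0.15 and 0.01. The type II genes had a median of 43.7% G+C, with Cdh10 at 33.8%, and the Celsr genes had 57.8% to 58.8%. G+C-poor members went both ways in affected against control: Pcdh11x, at 36.3%, and Pcdh20, at 42.0%, had log2 ratios of -0.12 and -0.37, whereas Cdh6, at 42.4%, and Pcdh10, at 43.5%, had 0.23 and 0.28. With the trend over G+C subtracted, Pcdh20 was at -0.315 in affected against control, barely inside the limit, which 10.5% of all loci were below. With both trends subtracted, Celsr1, Cdh3, Cdh13, Fat4 and Cdh5 were past the fold in affected against control, beside 3.32% of all loci, and Pcdh20 was lower past it, at -0.36, beside 5.04% of all loci. The cause of these trends was not tested.

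Catenins and other junction proteins, which join classical cadherins to actin, were examined beside the members, in a list chosen with earlier results of these data known. Of 10 that passed, 5 were higher past the fold in affected than control tissue and 7 were higher in affected than unaffected tissue, with 0 lower, and the medians were 0.32 and 0.44. Over all loci, 12.6% and 20.7% were higher, and outside the family the shares were 3.83% and 6.92% at 2000 to 4000 nucleotides and 23.0% and 45.6% at 6000 to 8000 nucleotides, the classes at either end of the catenins' lengths. Beta-catenin (Ctnnb1) had 273.1 FPKM in control, 285.1 FPKM in unaffected and 305.9 FPKM in affected tissue, and alpha-N-catenin (Ctnna2) had 65.8, 63.3 and 72.4 FPKM, both within the fold. Delta-catenin (Ctnnd2), a neuronal protein, had 33.4, 28.0 and 42.7 FPKM, the widest affected-against-unaffected log2 ratio of the list at 0.61. Ctnna1, Jup, Vcl and Mllt4 (afadin) were also past the fold against control, with log2 ratios of 0.34 to 0.38, and Ctnnd1 and Pkp4 were past it against unaffected alone. Their longest transcripts, 3205 to 7732 nucleotides among those past the fold, were shorter than those of the Fat and Celsr genes.

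Of the genes that act with Fat, Dachsous and Celsr proteins, 12 passed and 1 (8.33%, beside 12.6% of all loci) was higher in affected than control tissue, namely Dvl3, a Dishevelled protein, at 22.6, 21.6 and 31.7 FPKM. Against unaffected, 5 (41.7%, beside 20.7% of all loci) were higher: Dvl3, Prickle2, Prickle1, Vangl2 and Fzd3, with log2 ratios of 0.55, 0.48, 0.45, 0.35 and 0.33. Vangl2, the planar polarity partner of Celsr1, was at 21.4, 20.4 and 26 FPKM. Fjx1, the kinase that modifies Fat4 and Dachsous, was at 39.6, 37.4 and 40.3 FPKM. The median log2 ratios of the list were 0.22 and 0.28 against control and unaffected.

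Tails of delta protocadherins bind the WAVE complex, which starts branched actin. Of its 9 genes, Cyfip2 and Wasf2 were higher and Brk1, the smallest subunit, was lower past the fold in affected than control tissue, and Wasf1 joined the former against unaffected. Against control, 22.2% were higher and 11.1% lower, beside 12.6% and 11.5% of all loci. Against unaffected, 33.3% were higher and 11.1%, again Brk1, lower, beside 20.7% and 18.5% of all loci. Cyfip2 was at 31.7, 27.5 and 42.5 FPKM and Brk1 at 139.4, 151.7 and 110.7 FPKM. Their longest transcripts are 6659 and 1095 nucleotides. Of 7 proteases that cut cadherins, Pcsk6 was higher past the fold than control and Furin than unaffected, which is 14.3% in each case beside 12.6% and 20.7% of all loci, while Adam10, which sheds N-cadherin, was at 33.9, 33.1 and 38.1 FPKM.

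The clustered protocadherins, which give single neurons their identity, are listed as 23 loci in the table, since the Pcdha and Pcdhg genes were joined by the authors' assembly into 1 locus of 37 names. That locus had 219.8 FPKM in control, 200.6 FPKM in unaffected and 267.9 FPKM in affected tissue. Of 13 loci that passed the filter, 1 was higher past the fold in affected than control tissue and 5 were higher than unaffected, which is 7.69% and 38.5% of them beside 12.6% and 20.7% of all loci. These 5 were the joined locus, Pcdhb4, Pcdhb19, Pcdhb21 and Pcdhb22, and the 1 above control was Pcdhb4, at 1.12, 1.07 and 1.49 FPKM. The medians were 0.14 and 0.27. For comparison, the delta-2 genes had medians of 0.18 and 0.36.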

How the data were processed

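RNA-seq libraries were made by the authors from 9 fetuses with the TruSeq RNA kit and sequenced as 50-bp paired-end reads on an Illumina HiSeq. Reads were aligned to mm10. The methods name STAR with default settings as well as Bowtie and TopHat, and the submitters' processing notes list Bowtie2 2.2.4.0, Cufflinks and Cuffdiff, so which aligner gave these values is open. The deposited values are FPKM, 1 per group of 3 animals and locus, computed by the authors over the merged gene models of 27095 loci. The table also holds fold changes, p-values and q-values of the authors' own comparisons, which were not used. Members and gene lists were chosen with earlier results of these data known.

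From the FPKM, log2 ratios were taken with no pseudocount in Python 3.11.15 with pandas 2.3.3 and numpy 2.4.6. The same filter (mean of at least 1 FPKM, above 0 in every group) and fold limit (a log2 ratio of 0.32) were used for members and for all loci. Every member that passed was named, with partner genes past the fold against control or unaffected and Ctnnb1, Ctnna2, Ctnnd2, Vangl2 and Fjx1 whatever their values. Marker genes are named beside a member they bear on or in the check of the tissue. Nkx2-1, the thalamic markers and Adam10 were named after their values were seen. Lengths and G+C content came from GENCODE M21 (GRCm38, the build of mm10), which gave a length for 80.7% of the 15455 loci and for 35 of 35 members. Promoter sequences came from RefSeq and were found for 28 of 43 members. Scripts were tested on simulated data. Alternatives were other pseudocounts, filters and folds, centring, leaving out joined loci, and removal of trends over length or G+C.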

Additional observations from a re-analysis of the deposited data

How the results depend on the processing

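With 1 value per group and no values of single animals, leaving out an animal could not be done, and no count of fragments was at hand to set the precision of low genes. No paired analysis was possible because the deposited values are not split by replicate. Counts are of members past the fold and medians are log2 ratios. A pseudocount of 1 FPKM left 0 members lower in affected against control. Without the filter, over 43 members, 1 was higher in unaffected against control, 4 were lower in affected against control and 3 in affected against unaffected (10.8%, 16.9% and 22% of all loci). With a minimum mean of 5 FPKM, over 20 members, 0 were lower in affected against control and 2 in unaffected against control (10.1% and 2.84% of all loci), and the affected-against-unaffected median was 0.488. Centring on the median of all loci gave 1 member lower in affected against unaffected (19.4% of all loci). At 1.5-fold, 3 members were higher in affected against control (3.47% of all loci) and 10 in affected against unaffected (7.19%), while 0 were lower in affected against control and 0 in unaffected against control.

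Removing the length trend by the median transcript gave 3 members lower in affected against control (8.47% of all loci) and 5 in affected against unaffected (13.4%), with medians of 0.0828 and 0.238. The 3 were Cdh11, Cdh12 and Pcdh20, and Cdh7 and Pcdh11x joined them against unaffected. The next alternatives were chosen after seeing the data. By the longest transcript, 4 were higher and 3 lower in affected against control (4.24% and 6.77% of all loci), 8 higher and 3 lower in affected against unaffected (9.66% and 10.7%) and 0 lower in unaffected against control, with medians of 0.0588 and 0.144. By G+C content, 0 were lower in affected against control. By length and G+C together, 5 were higher in affected against control (3.32% of all loci), 9 higher and 3 lower in affected against unaffected (6.97% and 8.87%) and 0 lower in unaffected against control, with medians of 0.0511 and 0.15, and Cdh4 turned to -0.0276 in affected against unaffected. The cause was not tested. A pseudocount of 0.1 FPKM and leaving out joined loci moved no count by over 1.5 times.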

Other observations

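Of the 8 members below the filter, Cdh19 and Cdh26 had the widest ratios. Cdh19, a cadherin of Schwann cell precursors, was at 0.228 FPKM in control, 0.183 FPKM in unaffected and 0.0318 FPKM in affected tissue, and Cdh26, an epithelial cadherin, was at 0.0765, 0.117 and 0.325 FPKM. The depth behind such low values is unknown, and both were chosen after their values were seen.

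Chromosome 8 carries 9 of the 43 members, 7 of which passed the filter. Members there differed in direction. Cdh3 (chr8:106510891-106556908) and Cdh5 (chr8:104101625-104144502) were higher past the fold in affected than control tissue, with log2 ratios of 0.61 and 0.42, whereas Cdh8 (chr8:99026097-99416489) and Cdh11 (chr8:102632217-102785298) were both at -0.14. Cdh1 (chr8:106603368-106670246), the gene next to Cdh3, was at 0.20.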
